A study of Mus musculus with 2 samples.

Results

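Cytosolic ribosomal protein genes are described here in mouse dorsolateral prostate with and without a miR-32 transgene. The members are the genes with a symbol that starts with Rpl or Rps and a digit, together with Rplp0, Rplp1, Rplp2 and Rpsa, with the Rps6k kinases and pseudogene symbols left out. By this rule 84 genes with 122 probes were found among 18952 named genes and 41174 probes on the array. They comprised 43 large-subunit genes, 30 small-subunit genes, 3 genes of the ribosomal stalk and 8 paralogs and other genes that share the naming pattern. Each gene was read from its probe with the highest mean intensity over both arrays. Of the 84 genes, 82 were detected, meaning that both arrays showed them well above background in the same pool, wild-type or transgenic, and Rpl39l and Rpl3l were not detected in either pool.

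Dorsolateral prostate was taken from FVB/N mice at 6 months of age. The transgenic mice expressed miR-32, a microRNA, from ARR2PB, an androgen-responsive promoter built from probasin elements that directs expression to prostate epithelium, and wild-type mice of the same strain served as controls. Each genotype was represented by 1 pool of 6 animals, and the same 2 RNA pools were hybridised together on 2 arrays with the dyes exchanged. On array 1 the transgenic RNA was labelled with Cy3, and on array 2 with Cy5. As technical repeats of 1 pair of pools, the arrays form 1 replicate, so no test of genotype and no p-value was possible, and each ± is the SD over the 2 arrays.

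Ribosomal proteins clothe the ribosomal RNA of both subunits, and most are needed in equal number in every ribosome. Their mRNAs are among the most abundant of a cell, and their translation is controlled together through a run of pyrimidines at the 5′ end, the terminal oligopyrimidine tract, which responds to mTOR signalling. In secretory prostate epithelium, which makes large amounts of a few proteins, they are part of the machinery for that output. MicroRNAs lower target mRNAs through pairing of the seed, bases 2 to 8, and the transgene's product is shown first because it defines the groups.
mmu-miR-32-5p: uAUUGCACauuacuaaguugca

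RefSeq (GRCm38.p6) gave this mature sequence, with the seed in capitals, and promoter entries for 64 of the 84 genes. Windows of 30 bases centred on the RefSeq start are shown for genes with a long pyrimidine run at the start, which are textbook cases of the tract, and then for the genes with the lowest ratios below. Capitals mark the longest run of C and T in the window. The windows with a long run are those of Rps6 (chr4:86857353-86857382, minus strand), Rplp2 (chr7:141447636-141447665, plus strand), Rpl15 (chr14:18270972-18271001, minus strand), Rpl28 (chr7:4792950-4792979, plus strand) and Rps18 (chr17:33955651-33955680, minus strand).
Rps6: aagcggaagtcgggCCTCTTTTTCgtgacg
Rplp2: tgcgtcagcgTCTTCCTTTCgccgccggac
Rpl15: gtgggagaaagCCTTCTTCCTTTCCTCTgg
Rpl28: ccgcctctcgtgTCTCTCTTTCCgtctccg
Rps18: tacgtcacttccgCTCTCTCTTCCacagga

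The windows of Rps7 (chr12:28635939-28635968, minus strand), Rpl23 (chr11:97782425-97782454, minus strand), Rpl37 (chr15:5116598-5116627, plus strand) and Rpl9 (chr5:65391417-65391446, minus strand) held shorter runs in these 30 bases, around the start that RefSeq gives. Rps7 counts among the genes with a run below, through a run of 8 or more that does not lie wholly within these 30 bases.
Rps7: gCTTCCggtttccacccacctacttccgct
Rpl23: acgaggTCCggtcacgtggctgagtgggcg
Rpl37: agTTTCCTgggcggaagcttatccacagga
Rpl9: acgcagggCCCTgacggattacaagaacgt

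A run of 8 or more pyrimidines on the gene's strand within 30 bases of the start was held by 35 of the 64 genes (54.7%), against 25.8% of 27025 mouse genes with an entry. The letters CTTCCGG, searched on both strands from 250 bases before to 50 bases after the start, were found in 26 of the 64 genes (40.6%) and in 9.9% of all genes. AAGATGG was found in 15.6% of the 64 genes and 7.3% of all, CACGTG, the same on both strands, in 9.4% and 8.1%, and TATAAA in 10.9% and 15.7%. The 34 detected genes with the pyrimidine run had a median log2 ratio of −0.02 (lowest −2.50, highest 0.47), and the 28 without it had a median of 0.09 (lowest −2.33, highest 0.72). The ranges of both sets covered nearly the same span.

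No ribosomal protein gene met the size rule in either direction. The rule asks that the ratio of transgenic over wild type pass 1.5-fold on both arrays, to the same side. Of 82 detected genes, 0 were higher and 0 were lower, where 0.913% of all 10404 detected genes were higher and 1.31% were lower. Most ribosomal protein probes are bright, with 76 of the 82 among the brightest 10% of detected genes, and in that bright set of 1041 genes 2.88% were higher and 2.21% lower. With 82 genes, a count of 0 in each direction is close to these background shares and is no result about the members.

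The median log2 ratio over the 82 genes was 0.06, beside −0.06 over all detected genes and 0.00 over the brightest 10%. It was −0.01 on array 1 and 0.09 on array 2. The sign of this median depended on the processing: it was −0.04 by the scanner software's own ratios and −0.99 with median centring in place of loess, a setting in which the median of all detected genes was itself −0.57 and in which 0 members were higher (background 0.0192%) and 3 lower (Rpl13a, Rps9 and Rps23, background 5.32%). Relative to all genes in the same setting, the ribosomal protein genes lay above the median with loess and below it with median centring. No direction is given for the family as a whole.

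**Figure D1:**
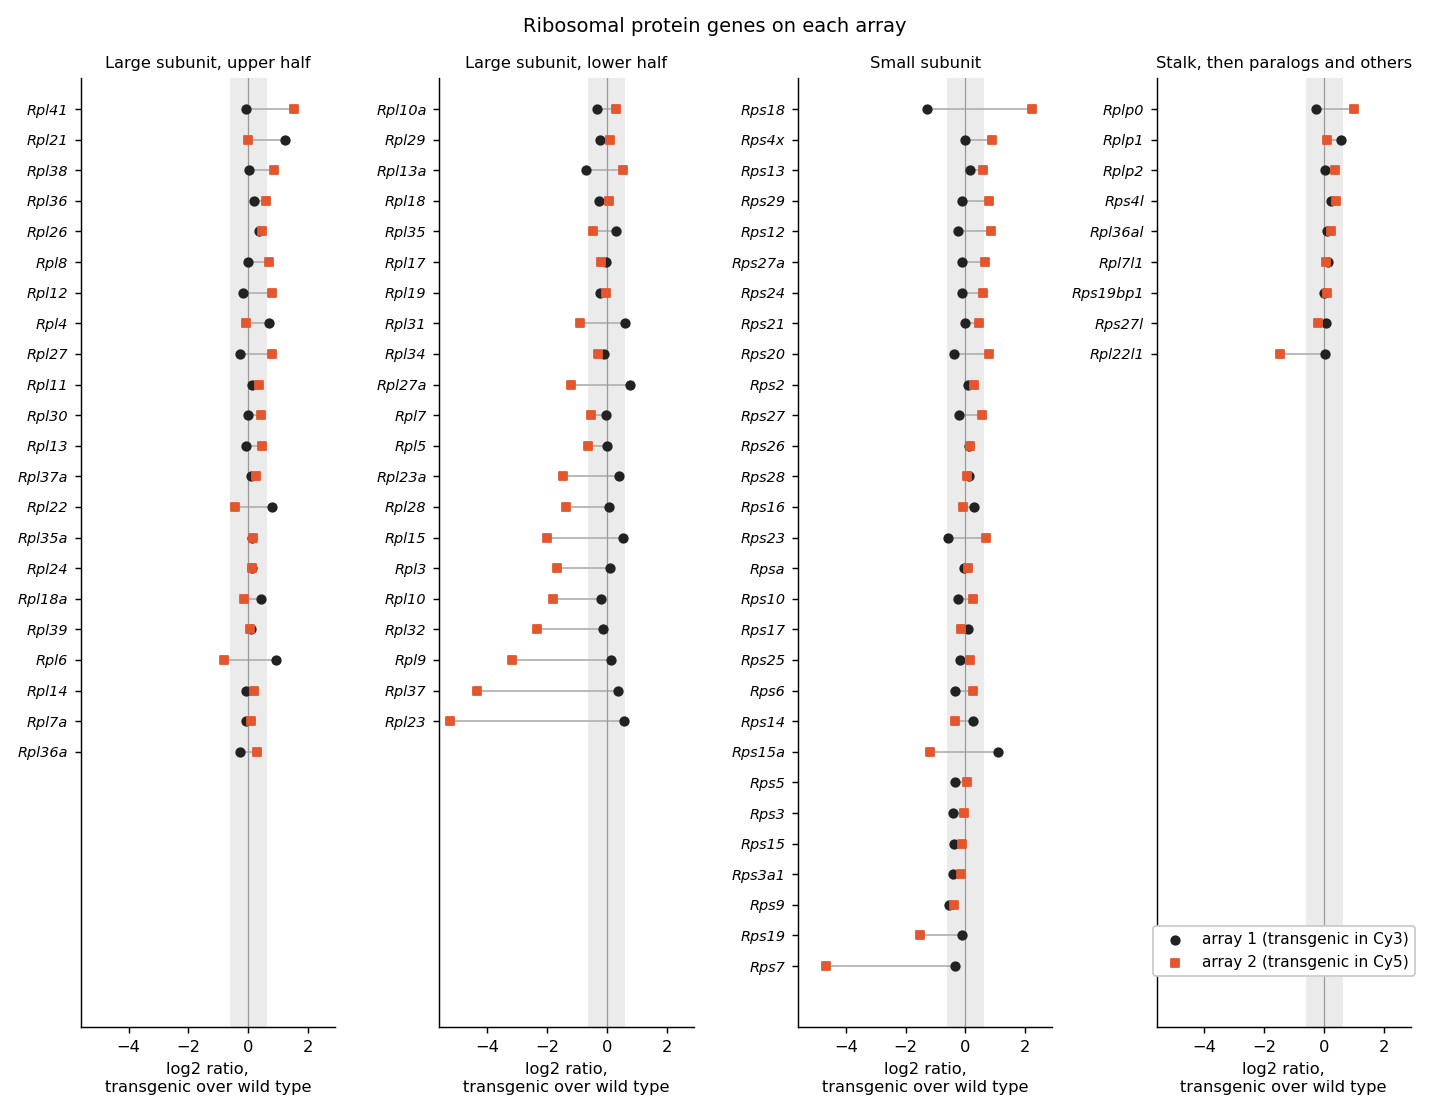
Log2 ratio of transgenic over wild type (horizontal axis) for 81 of the 82 detected ribosomal protein genes (rows, ordered by mean ratio within a group), on array 1 (black circles) and array 2 (orange squares), joined by a grey line. The grey band marks ratios within 1.5-fold; no gene drawn has both points beyond the band on the same side, and the longest lines belong to Rpl23, Rpl37 and Rps7, which are low on array 2 alone, followed by Rps18, which is low on array 1 and high on array 2. By the scanner software's own ratios, Rpl21 and Rpl3 pass on both arrays.

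The genes differed far more on array 2 than on array 1. The SD of the log2 ratio over the 82 genes was 0.39 on array 1 and 1.23 on array 2, where over the brightest 10% of detected genes it was 0.54 and 0.85. On array 1, 7 genes were at least 1.5-fold higher and 3 at least 1.5-fold lower (background 8.12% and 5.36% of detected genes, 12.8% and 8.36% of the brightest 10%). On array 2, 16 were higher and 17 lower (background 5.22% and 15.0% of detected genes, 13.9% and 19.9% of the brightest 10%). The sign was the same on both arrays in 29 of 82 genes, in 407 of the 1041 brightest and in 4722 of 10404 detected genes, and in 40 of the 82 by the scanner software's own ratios. Across the 82 genes, which share the pools, the slide and its dyes, Pearson's r between the arrays was −0.34 and Spearman's rho −0.38, and over all detected genes r was −0.03. By the scanner software's own ratios r over the 82 genes was −0.06.

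In 6 genes the ratio followed the dye, with at least 1.5-fold in opposite directions on the turned arrays. Rpl6, Rpl27a, Rpl31 and Rps15a were brighter in Cy3 (4 of 82, background 2.71%, or 5.86% of the brightest 10%), and Rps18 and Rps23 were brighter in Cy5 (2 of 82, background 0.346%, or 1.25%). Rps15a, a protein of the small subunit, had log2 ratios of 1.08 on array 1 and −1.20 on array 2. Rps18, which sits in the head of the small subunit, had −1.30 and 2.24, the widest such opposition among the members. By the loess ratios of the probes used, the sign in these genes turned with the label. A second, dimmer probe of Rps18 had 0.12 and −0.93, the other way round. By the scanner software's own ratios only Rps18 of the 6 passed 1.5-fold on both arrays, and Rps23 had −0.45 and −0.19. Rpl6, Rpl27a, Rps15a and Rps18 lay in the bottom rows of the arrays. With loess, bright probes of other genes there had medians of 0.63 on array 1 and −0.94 on array 2. Their array 2 median was −0.04 by the scanner software's own ratios.

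**Figure D2:**
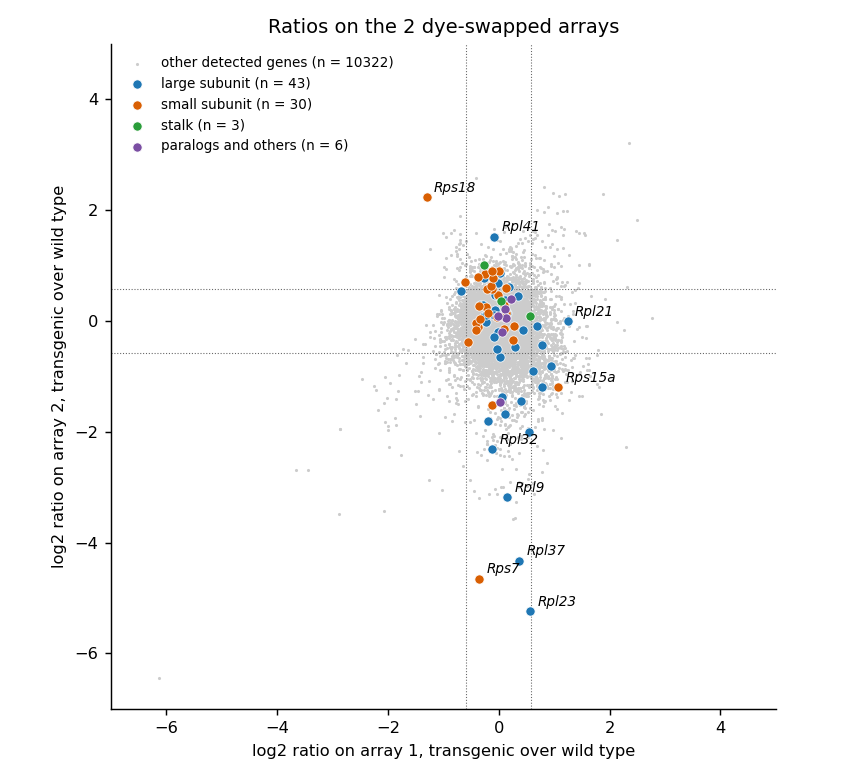
Log2 ratio on array 1 (horizontal axis) against array 2 (vertical axis) for the 82 ribosomal protein genes, coloured by group, and 10322 other detected genes in grey; dotted lines mark 1.5-fold. The upper right and lower left corners beyond the dotted lines hold no ribosomal protein gene, and Rpl23, Rps7, Rpl37 and Rpl9 lie far below 0 on array 2 alone.

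The lowest mean ratios came from array 2 alone. Net intensity, the median pixel signal less the local background, of Rpl23, a large-subunit protein at the subunit interface, was 25812 in the wild-type pool and 28650 in the transgenic pool on array 1. On array 2 it was 28446 in the wild-type pool and 87.5 in the transgenic pool. The log2 ratios were 0.57 and −5.24 (mean −2.33 ± 4.11). The wild-type signal was thus alike on both arrays. The transgenic signal was high on array 1 and far lower on array 2, though still well above background by the detection rule.

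Rps7, a small-subunit protein, had net intensities of 38511 (wild type) and 22423 (transgenic) on array 1, and 30079.5 and 173.5 on array 2. Its log2 ratios were −0.35 and −4.65 (mean −2.50 ± 3.04). Rpl37, a small zinc-binding protein of the large subunit, had log2 ratios of 0.37 and −4.33 (mean −1.98 ± 3.32). Rpl9, of the large subunit, had 0.16 and −3.18 (mean −1.51 ± 2.36). In each of these genes the SD over the arrays exceeded the size of the mean.

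Rpl32 (−0.12 and −2.32), Rpl10 (−0.20 and −1.81), Rps19 (−0.11 and −1.51), Rpl3 (0.12 and −1.68), Rpl15 (0.55 and −2.01) and Rpl22l1 (0.02 and −1.46) complete the 10 lowest mean log2 ratios, given as array 1 and array 2. Rpl10 joins the large subunit late in its assembly, Rps19 is mutated in Diamond-Blackfan anaemia, and Rpl3 lies near the site of peptide bond formation. On array 2, 14 members were at least 2-fold lower (background 4.87% of detected genes, 10.2% of the brightest 10%) and 3 at least 2-fold higher (1.52% and 5.19%). On array 1, 1 was at least 2-fold lower (background 0.827% and 1.83%) and 2 were higher (1.82% and 4.13%). The 14 low members ranged from −0.35 to 1.08 on array 1. These counts rest on the loess ratios. In the scanner software's own ratios, Rpl23 (−4.51), Rps7 (−3.79), Rpl37 (−3.10), Rpl9 (−2.02) and Rpl32 (−1.23) stayed at least 2-fold lower on array 2. The rest of the 14 did not, with values from −0.81 (Rpl15) to −0.08 (Rpl22l1).

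Position on the array went with these values. For each gene a neighbour median was taken: the median log2 ratio, on the same array, of the 10 nearest probes of other genes that had a mean log2 intensity of at least 9 and a wild-type signal above background on array 1 and array 2. The neighbour medians of the detected members ran from −0.49 to 0.91 on array 1 and from −2.72 to 0.61 on array 2. Across the 82 genes, the ratio of a ribosomal protein gene and its neighbour median had Pearson's r of 0.50 on array 1 and 0.83 on array 2 (Spearman's rho 0.52 and 0.78). Of the 14 members at least 2-fold lower on array 2, 13 had neighbours that were themselves at least 1.5-fold lower in the median, and Rpl10, the 14th, had a neighbour median of −0.56.

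A band at spot columns 70 to 79 and rows 200 to 460, chosen after its values were seen, held 172 bright probes of other genes with a median log2 ratio of 0.17 on array 1 and −1.63 on array 2. It also held Rpl9, Rpl15, Rpl23, Rpl32, Rpl37 and Rps19. A rim beside it, at columns 80 to 85 and rows 320 to 410, held 61 bright probes of other genes with a median of 1.12 on array 2, and Rpl26. The bottom rows from 480 to 532, at columns 1 to 69, held 183 such probes. With loess these had medians of 0.63 on array 1 and −0.94 on array 2. The scanner software's array 2 medians were −0.85 in the band, 2.86 in the rim and −0.04 in the bottom rows. With loess, Rpl3, Rpl6, Rpl23a, Rpl27a, Rpl28 and Rps15a of the 8 members in the bottom rows were low on array 2. Rps14 had −0.35 and Rps18 was high. The part that position had in these ratios was not tested beyond the removal of neighbour medians below.

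**Figure D3:**
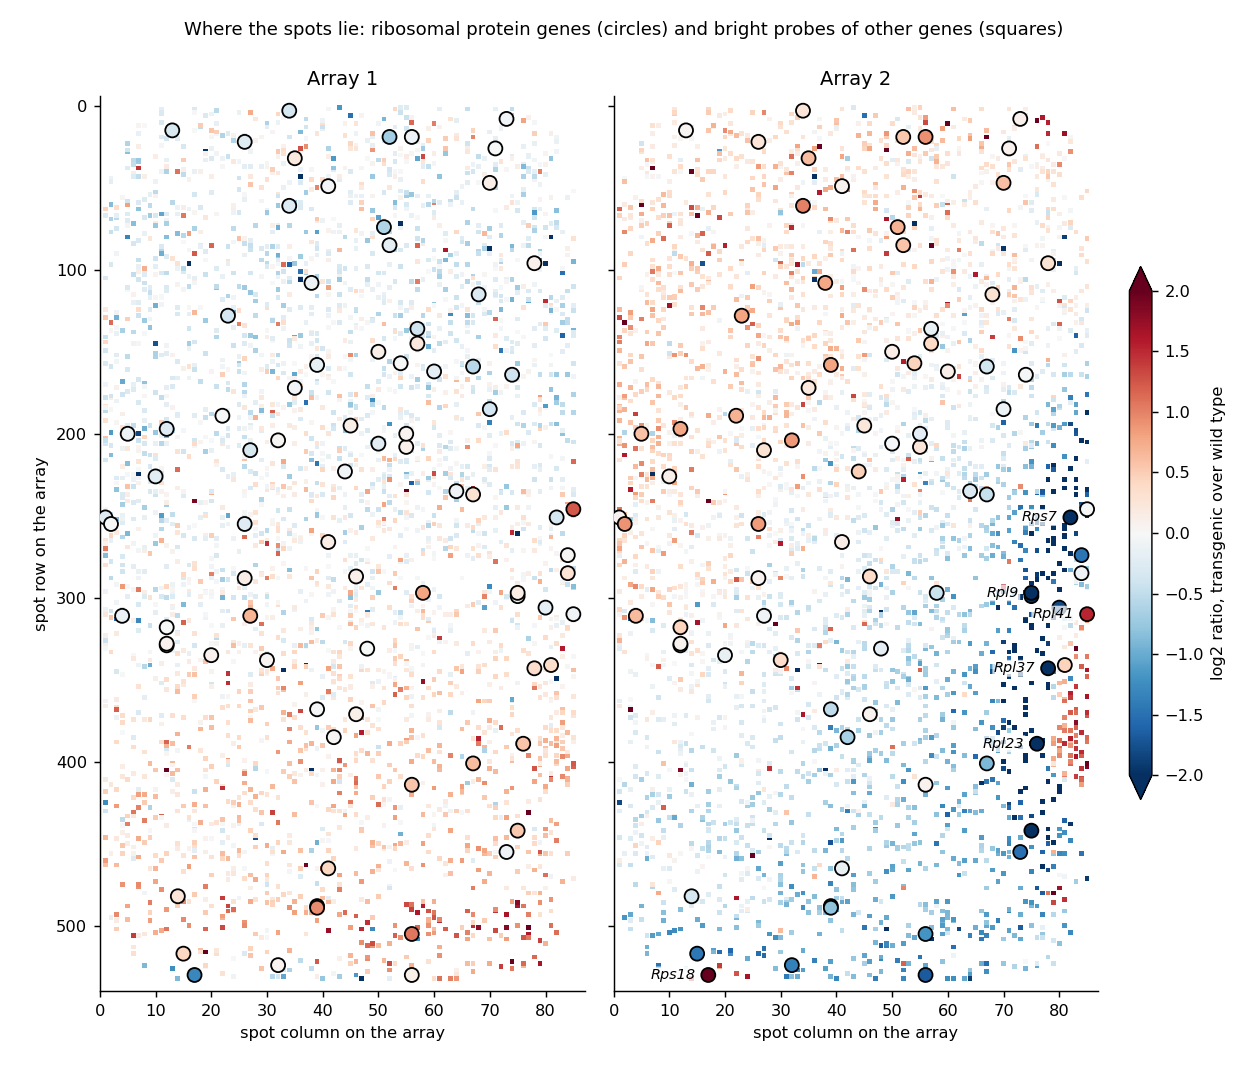
Spot positions on array 1 (left) and array 2 (right), by spot column (horizontal axis) and spot row (vertical axis). Circles are the 82 detected ribosomal protein genes and squares 3220 bright probes of other genes, coloured by the log2 ratio of transgenic over wild type (blue lower, red higher, ends at −2 and 2). On array 2 the dark blue circles at the right lie among dark blue squares, and a red strip borders them.

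With the neighbour median taken off on each array, the SD over the 82 genes went from 0.39 to 0.35 on array 1 and from 1.23 to 0.77 on array 2. Rpl15 went from −2.01 to −0.07 on array 2 and Rpl22l1 from −1.46 to −0.07. Rpl23, Rps7 and Rpl37 still had −2.52, −2.55 and −2.70 on array 2 and 0.12, −0.31 and 0.19 on array 1. These 3 genes were thus lower than their neighbours on array 2 and close to their neighbours on array 1. Rpl9 and Rpl10 also stayed lower than their neighbours on array 2, at −1.30 and −1.25, with 0.08 and −0.22 on array 1. Among 77 members with a mean log2 intensity of at least 9, 1 gene (Rpl21) was then higher and 0 were lower by the size rule, against a background of 2.04% and 1.61% of 2545 genes.

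**Figure D4:**
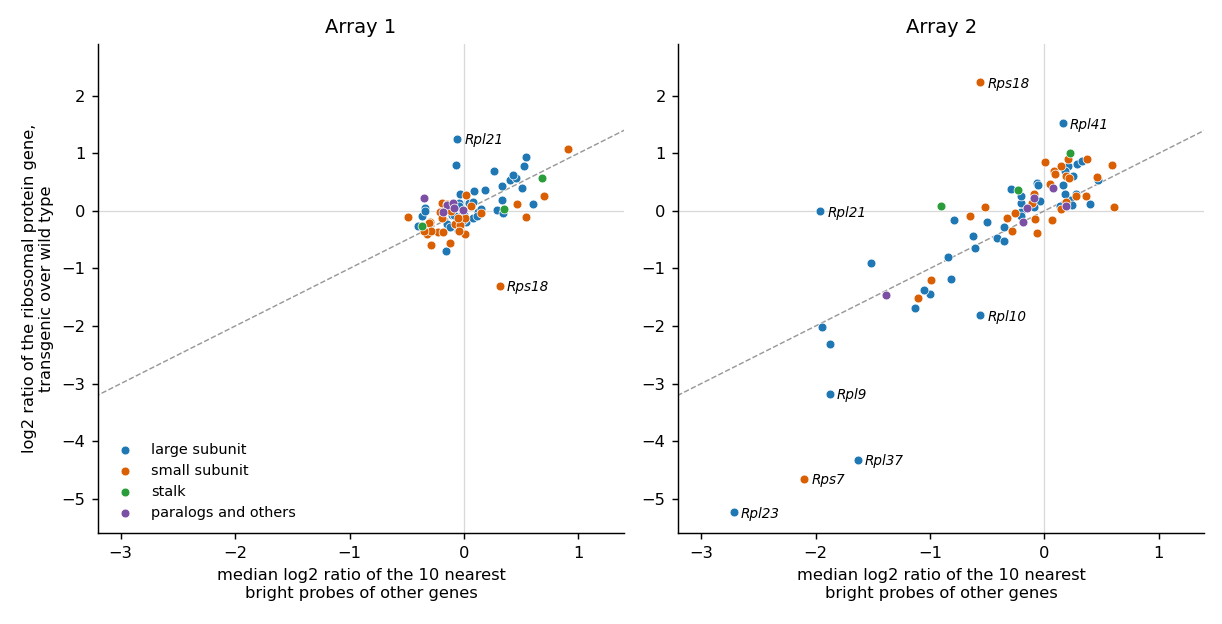
Log2 ratio of each of the 82 ribosomal protein genes (vertical axis) against the median log2 ratio of the 10 nearest bright probes of other genes on the same array (horizontal axis), for array 1 (left) and array 2 (right). Points on the dashed line equal their neighbours. On array 2 the points follow the line down to about −2. Rpl23, Rps7, Rpl37, Rpl9 and Rpl10 lie below it, and Rps18, Rpl21 and Rpl41 above it.

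A total of 24 members lay where the neighbour median was past 1.5-fold on either array, 4 of them on array 1 and 23 on array 2. Over these 24 the log2 ratios had a median of 0.32 on array 1 and −1.19 on array 2. The 58 members elsewhere had medians of −0.07 and 0.26, with an SD of 0.29 on array 1 and 0.55 on array 2. In the scanner software's own ratios the medians were 0.08 and −0.36 for the 24, and −0.05 and −0.04 for the 58. Other bright genes had array 2 medians of −0.85 for 208 genes in the shifted areas and 0.12 for 757 genes elsewhere. The areas were drawn from the ratios of such genes, so this split was set by the definition. Among the 58 members, 0 were higher and 0 lower by the size rule, and the median of their mean log2 ratios was 0.14.

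The highest mean ratios were small. Rpl41, the shortest of the ribosomal proteins, had log2 ratios of −0.08 on array 1 and 1.52 on array 2 (mean 0.72 ± 1.13). Its net intensities were 93900.5 and 64993.5 in the wild-type and transgenic pools on array 1, and 119508 and 53333 on array 2. Its spot lay in the last column, beside the rim. Its neighbour medians were 0.11 and 0.16. By the scanner software's own log ratios it had −0.12 and 2.45 where its neighbours had 0.06 and 1.82. The value thus came from array 2 alone.

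Rpl21, of the large subunit, had log2 ratios of 1.25 and −0.00 (mean 0.62 ± 0.89), from net intensities of 1518.5 (wild type) and 2872.5 (transgenic) on array 1 and 2333 and 454 on array 2. The scanner software's log ratios were 1.42 and 1.54, and the authors' deposited table holds 1.42 and 1.51. Its neighbours on array 2 had a median of −1.96, or −1.42 with the scanner software's ratios. Rpl21 was the 1 member higher on both arrays by the scanner ratios (background 2.36%), and Rpl3, at −0.63 and −0.65, the 1 member lower on both (background 5.97%). In the authors' deposited table they were again the 1 member higher and the 1 lower (background 2.86% and 1.94%). A dimmer probe of Rpl21 had −0.26 on array 1 and −0.64 on array 2, but its transgenic signal on array 2 was below the local background (net intensity −5.5), so it says little of the brighter probe.

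Rps18 (−1.30 and 2.24), Rps4x (−0.00 and 0.90), Rpl38 (0.03 and 0.86), Rpl36 (0.19 and 0.61), Rpl26 (0.35 and 0.45), Rplp0 (−0.26 and 1.00) and Rps13 (0.14 and 0.60) were also among the 10 highest means. Rpl38 is known for its part in the translation of Hox mRNAs, Rpl26 binds p53 mRNA, and Rps4x is encoded on the X chromosome. On array 2 these 7 were above 0, and on array 1 Rps18 and Rplp0 were below 0, Rps4x and Rpl38 at about 0, and Rpl36, Rpl26 and Rps13 above 0 and within 1.5-fold. Rpl26 had a mean of 0.40 ± 0.07, and by the scanner software's own ratios 0.14 and 1.59 (mean 0.87 ± 1.02). Its spot lay in the rim, where the median of other bright probes on array 2 was 1.12 with loess and 2.86 by the scanner's ratios. The neighbour median of Rpl26 itself on array 2 was 0.16 with loess and 1.70 by the scanner's ratios.

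The stalk proteins Rplp0, Rplp1 and Rplp2 form the arm of the large subunit that recruits elongation factors. Rplp0 had net intensities of 122050 (wild type) and 74545 (transgenic) on array 1 and 115520 and 36489.5 on array 2, with log2 ratios of −0.26 and 1.00 after normalization (mean 0.37 ± 0.89). Rplp1 had 0.57 and 0.09 (mean 0.33 ± 0.34) and Rplp2 had 0.04 and 0.37 (mean 0.20 ± 0.23). In the probes used, the means of all 3 were above 0, and each was below 1.5-fold. By the scanner software's own ratios the median of the 3 was −0.05. A second, dimmer probe of Rplp0 had −0.45 and 0.06 (mean −0.19).

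Rps6, the substrate of the S6 kinases, had −0.35 and 0.27 (mean −0.04 ± 0.43). Rps3, which lies at the mRNA entry channel, had −0.41 and −0.04 (mean −0.22 ± 0.26), and Rps14, affected in a form of myelodysplastic syndrome, had 0.26 and −0.35 (mean −0.04 ± 0.43). Rps27a, made as a fusion with ubiquitin, had −0.13 and 0.64 (mean 0.25 ± 0.54). All 4 were within 1.5-fold on array 1.

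Rpl5 and Rpl11, which together bind Mdm2, had 0.02 and −0.64 (mean −0.31 ± 0.47) and 0.11 and 0.38 (mean 0.25 ± 0.19). Rpl13a, which also takes part in translational silencing of inflammatory mRNAs, had −0.69 and 0.54 (mean −0.08 ± 0.87). Rpsa, also known as the laminin receptor precursor, had −0.04 and 0.07 (mean 0.02 ± 0.07). In the probes used, the partners Rpl5 and Rpl11 had means of opposite sign, and both were within 1.5-fold on array 1. A second, dimmer probe of Rpl5 had −0.21 and 0.49 (mean 0.14), the same sign of mean as Rpl11. The Rpl5 probe used had a neighbour median of −0.61 on array 2.

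Among paralogs and their parents, Rpl22 had 0.79 and −0.44 (mean 0.18 ± 0.87) and Rpl22l1 0.02 and −1.46 (mean −0.72 ± 1.05), both with spots where neighbours on array 2 were low (−0.62 and −1.39). Rpl36a had a mean of 0.00 ± 0.41 and Rpl36al 0.17 ± 0.08. Rps27 had 0.18 ± 0.55, and Rps27l, a p53 target, −0.07 ± 0.18. Rpl7 had −0.28 ± 0.34, and Rpl7l1, a ribosome assembly factor, 0.10 ± 0.06. The means of Rpl36a and Rpl36al, of Rps27 and Rps27l, and of Rpl22 and Rpl22l1 differed by less than the larger SD of the pair over the arrays, and those of Rpl7 and Rpl7l1 by slightly more.

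Rps19bp1, a regulator of Sirt1 that is named for binding Rps19 and is not itself a ribosomal subunit protein, had −0.01 and 0.09. Rps4l, which RefSeq lists as a transcribed pseudogene, had 0.22 and 0.40. The muscle form Rpl3l and the testis form Rpl39l had net intensities of at most 11 in either pool on either array, and were not well above background. Their parents Rpl3 and Rpl39 were detected, with Rpl39 at 0.09 and 0.07.

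Different probes of a gene often had different ratios. Of 28 members with several detected probes, 16 had probes with mean ratios of opposite sign, as did 13 of 25 when only probes above background in both pools on both arrays were kept. Over the 28, the median range between probes of a gene was 0.42 on array 1 and 1.03 on array 2. A second probe of Rpl23, in row 7 of the array, had 0.08 and 0.25, where the brighter probe in row 389 had 0.57 and −5.24. A second probe of Rps21, at column 72, had 0.83 and −2.84, where the brighter one had −0.02 and 0.46. For these 2 genes the low value on array 2 belonged to the probe that lay in the right-hand band of low spots.

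Among genes that work with the ribosome, 1 of 43 detected initiation factors was higher and 1 lower, and 1 of 55 biogenesis factors was lower, beside 0.913% higher and 1.31% lower of all detected genes. The counts are too small to set apart from these shares. Of the initiation factors, Eif5b, which joins the subunits, was higher (0.70 and 0.72) and Eif4g1, the scaffold of cap binding, was lower (−0.81 and −0.64), with a list median of −0.18 and a range from Eif2b2 at −0.93. The biogenesis factor was Ubtf, a factor of rRNA transcription, with −0.64 and −0.63, at a spot whose neighbours had −1.23 on array 2. The list of biogenesis factors ran from Eif6 at −0.95 to Riok1 at 0.57, with a median of −0.05. Eif5b and Ubtf fell short of 1.5-fold on array 2 by the scanner software's own ratios (0.52 and −0.03), as did Eif4g1 (−0.47).

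No gene met the rule among 12 elongation factors and genes named for them (Eif5a −0.52 to Eif5a2 0.32), 22 other genes with a terminal oligopyrimidine tract (Vim −0.42 to Fau 0.58), 78 mitochondrial ribosomal proteins (Mrps28 −1.47 to Mrpl23 0.40) or 19 genes of mTOR and MYC control (Tsc1 −0.44 to Rps6kb2 0.35), where all values are mean log2 ratios. The list medians were −0.04, −0.08, −0.09 and −0.02. The first list was drawn by symbol and holds, besides elongation factors, the methyltransferases Eef1akmt1, Eef1akmt2, Eef1akmt4 and Eef1aknmt, which modify Eef1a, and Eef1e1 of the tRNA synthetase complex. Fau, a ribosomal protein made as a fusion with a ubiquitin-like protein, had 0.08 and 1.09. Rack1, on the head of the small subunit, had −0.52 and 0.82. With loess, Fau and Rack1 had the same pattern as the Rplp0 probe used, near or below 0 on array 1 and higher on array 2. By the scanner software's own ratios Fau had 0.18 and 0.11, Rack1 −0.31 and −0.06, and Rplp0 −0.11 and −0.06. The pattern thus depended on the processing.

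Marker genes of several cell types were lower in the transgenic pool. Of 14 detected leukocyte markers 8 were lower in the transgenic pool, among them Cd74 (−1.75 and −2.42) and H2-Aa (−2.00 and −1.97). Of 9 detected adipocyte markers 5 were lower, among them Fabp4 (−1.97 and −2.28). Of all 10404 detected genes 1.31% were lower. Only 5 of the 14 leukocyte and 4 of the 9 adipocyte markers were well above background on both arrays with transgenic RNA. The rest counted as detected through wild-type RNA alone, so the detection rule favoured lower calls among them. Of all detected genes, 6060 passed with transgenic RNA. Of 12 markers of dorsolateral prostate epithelium 4 were lower, with Spink1 at −6.13 and −6.45 and Sbp at −2.88 and −3.48. Krt8, Krt18 and the other 6 were past the rule in neither direction. The mean ratio was above 0 in 4 of the 12 and below 0 in 8. Tgm4 (0.25 and 1.16) and Pbsn (−0.32 and 1.39) were among those above. Of 7 smooth muscle markers none met it. Of 8 seminal vesicle markers only Ceacam10 was detected, through the wild-type pool alone, and was lower. In pooled tissue, fewer cells of a type and less RNA per cell cannot be told apart, and the part of these cells in the ribosomal protein ratios was not tested.

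Array 2 had the weaker Cy5 signal, with 21.1% of spots well above background in Cy5 against 42.1% on array 1, and 58.3% and 57% in Cy3. Repeated spots of the probes printed 10 times varied by a median SD of 0.17 in log2 ratio on array 1 and 0.23 on array 2. The number of arrays limits the precision.

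**Figure D5:**
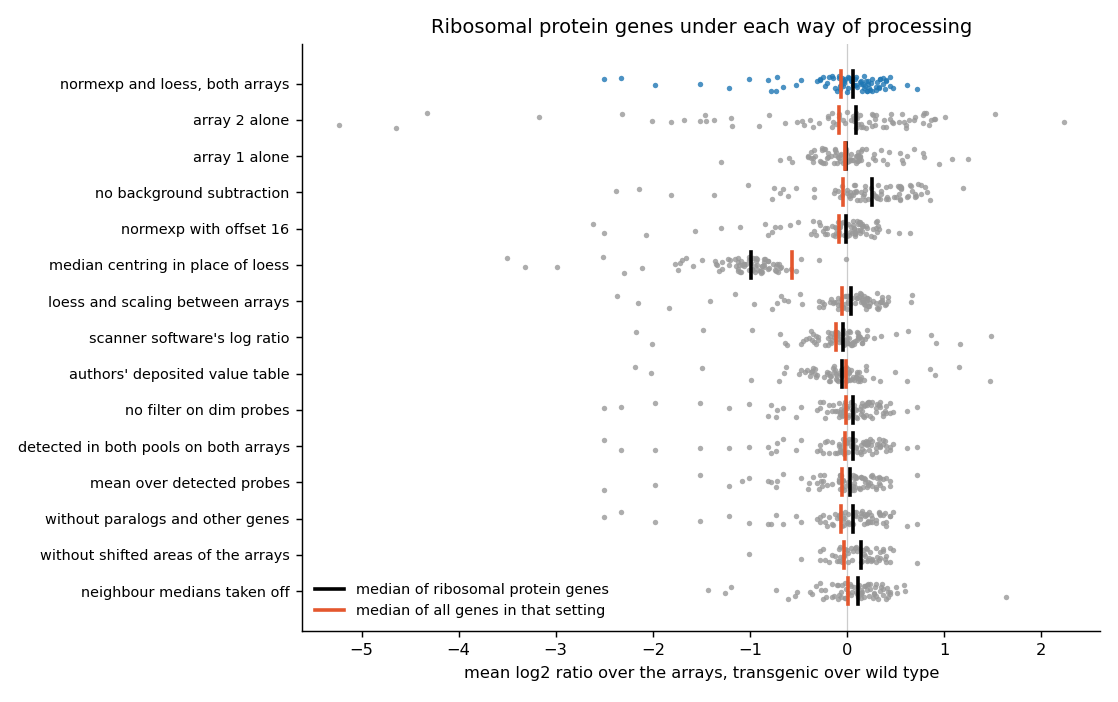
Mean log2 ratio over the arrays (horizontal axis) of each ribosomal protein gene (points) under each way of processing (rows), with the median of these genes (black bar) and of all genes in that setting (orange bar). The black bar stays within 0.26 of 0 except with median centring in place of loess, where it lies at −0.99, and its sign differs between rows.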

How the data were processed

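Total RNA of 2 pools was labelled with Cy3 and Cy5 and hybridised to 2 Agilent arrays of 1 slide as a dye swap, per the labels. Spot and local background signals are deposited as median pixel intensities in each dye; the file headers name Feature Extraction 11.0.1.1 as the software. The log ratio that it wrote, as deposited, is the log10 value of Cy5 divided by Cy3, and the authors' deposited value table holds log2 ratios that matched it on each array (r = 1), with a filter not given in the sources used here. Both served as alternatives.

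Ratios were computed with limma 3.58.1 in R 4.3.3: normexp background correction with an offset of 50 on median signals (the planned mean signal was not used here), loess within each array with control and outlier spots at weight 0, and every ratio turned to transgenic over wild type. Accessions of 27816 probes matched RefSeq symbols of GRCm38.p6 and 13358 did not. The array annotation cites another build, so coordinates are those of the RefSeq sequences only. The size rule asks for 1.5-fold to the same side on both arrays. In a simulation of this comparison on 41174 probes it called 8% of 50 probes changed by 1.5-fold, 58% at 2-fold and 100% at 4-fold. That run held the noise of repeated spots and a dye term, without shifted areas. Its shares therefore do not describe the rule for members whose spots lie in such areas. In a separate run, a simulated uniform shift of −2 in a patch of array 2 gave a neighbour median of −2.01 inside the patch. Probes near the edge of the patch were left out, so that run does not describe spots at the border of a shifted area. Named genes are the 10 highest and 10 lowest members, members past the rule, 16 of known role, the paralogs with their parents, and the extremes and calls of each list. Other members are named where a count is small or a spot's position is described, after their values were seen. Some of these genes are not reported here. Members and lists were chosen with earlier results of these data known. Figures used matplotlib 3.10.9.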

Additional observations from a re-analysis of the deposited data

How the results depend on the processing

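Each value was recomputed with 1 choice changed. The number of ribosomal protein genes past the size rule was 0 higher and 0 lower without background subtraction, with an offset of 16, with scaling between arrays, without a filter on dim probes, with detection in both pools, with the mean over probes, without paralogs and other genes, and at 2-fold. It was 1 higher (Rpl21) and 1 lower (Rpl3) with the scanner software's log ratio and with the authors' deposited value table (background 2.86% and 1.94%). Median centring in place of loess gave 3 lower (Rpl13a, Rps9 and Rps23, background 5.32%) and 0 higher (0.0192%). On 1 array alone, with no second array to agree, 7 to 16 were higher and 3 to 17 lower. The median log2 ratio was −0.01 to 0.09 on 1 array alone, 0.26 without background subtraction, −0.99 with median centring, −0.042 with the scanner software's ratio, −0.055 in the authors' deposited table, and −0.01 with an offset of 16.

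Alternatives chosen after seeing the data left out spots in shifted areas of the arrays (0 higher, 0 lower, median 0.14) or took neighbour medians off (1 higher, Rpl21, 0 lower, median 0.12). The cause of these changes was not tested. Single genes moved by more than their SD over the 2 arrays, a wide measure for many of them, in 65 of 82 with median centring, 23 of 82 without background subtraction, 18 of 82 with the scanner software's ratio, 18 of 81 in the authors' deposited table, 13 of 77 with neighbour medians taken off, 7 of 82 each with an offset of 16 and with the mean over probes, and 0 of 82 with scaling between arrays. The other alternatives leave a gene's value as it is or fix how far it can move. No paired analysis was possible because each genotype is 1 pool, and the arrays already compare the same pair of pools. The weak Cy5 signal of array 2 limits what its ratios can show.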
